A study of Mus musculus with 3 samples.

Results

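Insulin receptor signalling was examined through 10 genes, from the receptors Insr and Igf1r down to the glucose transporter gene Slc2a4, in 2 peak lists from mouse beige adipocytes. The genes were set by name (Insr, Igf1r, Grb10, Irs1, Irs2, Pik3r1, Akt1, Akt2, Rptor and Slc2a4), and every peak that the deposited annotation gives to one of them was taken. This yielded 24 of 16937 Foxp4 peaks and 37 of 17564 H3K27ac peaks. Foxp4 is a forkhead transcription factor, and H3K27ac is the acetylated form of histone H3 that marks active promoters and enhancers.

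The study used chromatin immunoprecipitation with sequencing (ChIP-seq) on a Foxp4 ChIP library, an H3K27ac ChIP library and an input DNA library, 1 of each. All came from C57BL/6 stromal-vascular cells of inguinal white fat that had been turned into beige adipocytes in culture, thermogenic fat cells of white depots. Per the labels, the cells were expanded in 20% serum for 3 days and up to confluence. In 10% serum they then received insulin (5 µg/ml), isobutylmethylxanthine (0.5 mM), dexamethasone (1 µM), T3 (50 nM) and troglitazone (5 µM) for 48 h. Insulin, T3 and troglitazone were kept on for 6 more days, so the cells of all 3 libraries had insulin from induction on, and no insulin-free culture was analysed here. The labels give neither the age of the mice nor how many animals or cultures were pooled. With 1 library of each kind there is no replicate, no condition to compare and no test, and every value below describes these libraries. Depth cannot be read from peak lists, so a missing peak means that none was called. Of the markers of fat cells, 4 of 6 had an H3K27ac peak within 1000 bp of a transcription start site (TSS), namely Pparg, Cebpa, Plin1 and Lipe, and of the beige markers 1 of 6 did (Ebf2), while Ucp1 did not. The progenitor markers had it at 2 of 4, macrophage markers at 1 of 4, endothelial markers at 0 of 3 and muscle markers at 0 of 3.

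As background, insulin binds its receptor tyrosine kinase, which phosphorylates the docking proteins Irs1 and Irs2. These recruit phosphatidylinositol 3-kinase (PI3K) through its regulatory subunit, the lipid product activates the Akt kinases, and Akt drives the transporter Glut4 (Slc2a4) to the cell surface and promotes growth signalling by mTORC1. In fat cells the pathway raises glucose uptake and fat storage and restrains fat breakdown, and forkhead factors of the FoxO group are among the targets that Akt switches off.

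Fewer of these genes had Foxp4 at the promoter than had the mark of active promoters there. A Foxp4 peak with its centre within 1000 bp of a TSS, called a promoter peak here, was found at 3 of the 10 genes, Insr, Pik3r1 and Rptor, against 6.49% of 21883 protein-coding genes. An H3K27ac promoter peak was found at 9 of the 10, all but Slc2a4, against 25.0% of protein-coding genes. The 3 genes with Foxp4 each had an acetylated promoter too, and among all genes with an acetylated promoter 14.2% had a Foxp4 promoter peak. Counting peaks at any distance, 9 of 10 genes had a Foxp4 peak (35.1% of protein-coding genes), 9 had an H3K27ac peak (36.0%) and 8 had both (19.6%). Akt1 was the gene with no Foxp4 peak assigned and Slc2a4 the gene with no H3K27ac peak. The Foxp4 count at promoters rests on low-scoring peaks, since none of the 3 stood in the higher-scoring 50% of its list. With a 500 bp window the H3K27ac count was 5, with Rptor among them but not Insr or Pik3r1. By the promoter class of the deposited annotation it was also 5, without Insr, Pik3r1 or Rptor. Of the 3 genes, Rptor thus kept both kinds of promoter peak at 500 bp, and all 3 had both at 3000 bp. The windows go by peak centres. The H3K27ac peak of Pik3r1, 2588 bp wide, covered 100% of its Foxp4 promoter peak.

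**Figure D1:**
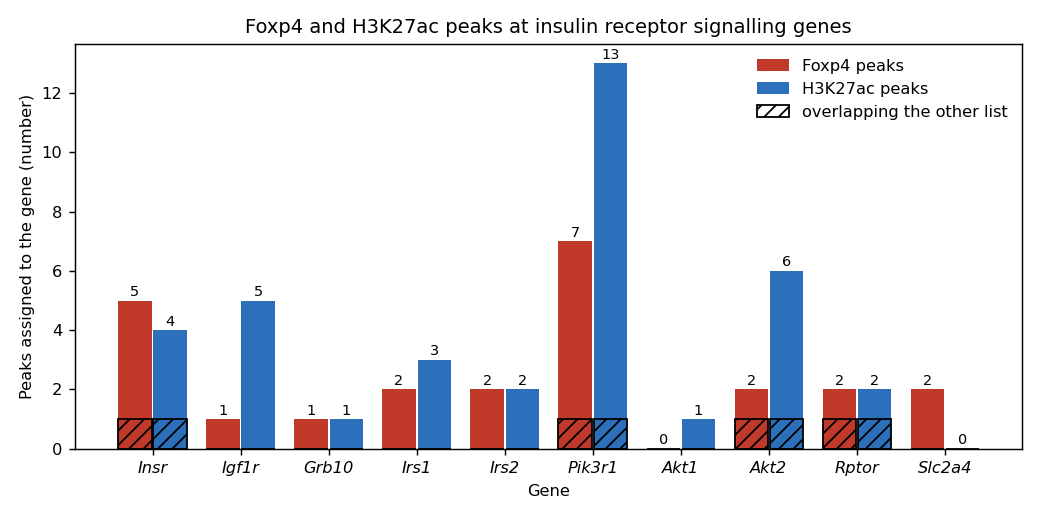
Number of Foxp4 peaks (red, left bar) and H3K27ac peaks (blue, right bar) assigned to each gene, with hatching for peaks that share at least 1 bp with a peak of the other list. Pik3r1 carries 7 Foxp4 and 13 H3K27ac peaks, and hatched peaks occur at Insr, Pik3r1, Akt2 and Rptor, 1 pair at each.

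These genes are longer than most, and a longer gene can collect more peaks. Their length ranged from 5.93 to 297 kb with a median of 72.9 kb, against a median of 17.2 kb over all protein-coding genes. All 6 members of 50 kb or more had a Foxp4 peak, where 57.9% of protein-coding genes of that length had one, and 3 of the 4 shorter members did, where the share was 28.5%. For an H3K27ac promoter peak the counts were 6 of 6 and 3 of 4, against 31.5% and 23.1% of protein-coding genes of those lengths. The part that length plays in the counts was not tested further.

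**Figure D2:**
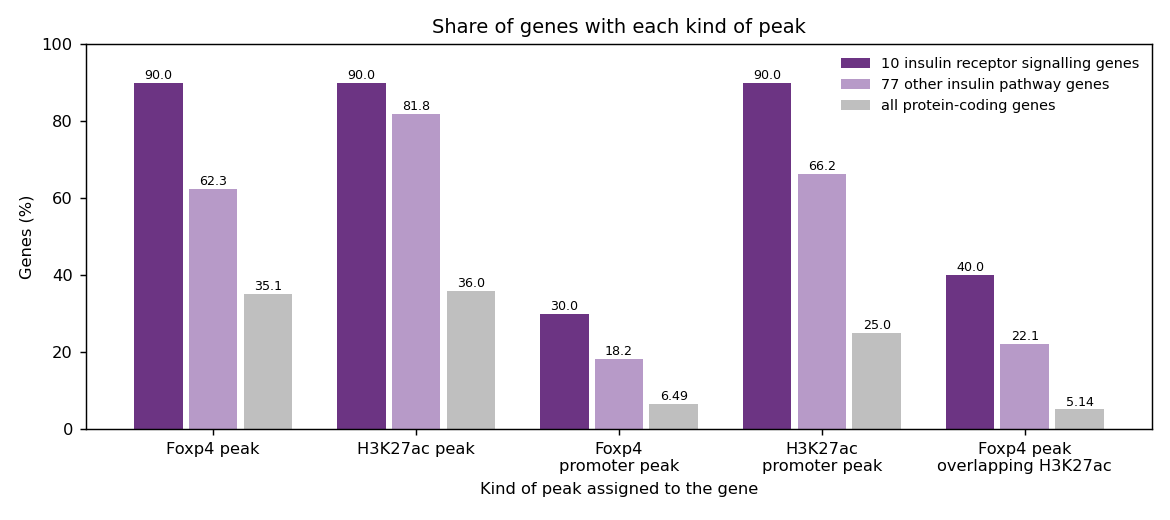
Share of genes, in percent, with each kind of peak among the 10 genes (dark purple), 77 other insulin pathway genes (light purple) and all protein-coding genes (grey). A Foxp4 promoter peak is present at 30.0%, 18.2% and 6.49%, and an H3K27ac promoter peak at 90.0%, 66.2% and 25.0%.

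The bases upstream of 5 starts are shown because they cover what the peaks distinguish. Rptor and Pik3r1 had a Foxp4 peak on the window, Akt1 had acetylation there without Foxp4, and Irs1 and Irs2 shared a pair of motifs. Each window is the 250 bases before a start, read in the direction of transcription, from RefSeq on GRCm38.p6, the assembly of mm10. Capitals mark matches, on either strand, to a forkhead heptamer (the heptamers searched were TGTTTAC and likewise TGTTTAT, then TGTTTGC and also TGTTTGT, then TATTTAC and likewise TATTTAT, and last TATTTGC and also TATTTGT), to TGTTTTG, the element of insulin-responsive promoters that FoxO factors are known to bind, or to the E-box CACGTG.
Rptor, chr11:119602655-119602904, plus strand: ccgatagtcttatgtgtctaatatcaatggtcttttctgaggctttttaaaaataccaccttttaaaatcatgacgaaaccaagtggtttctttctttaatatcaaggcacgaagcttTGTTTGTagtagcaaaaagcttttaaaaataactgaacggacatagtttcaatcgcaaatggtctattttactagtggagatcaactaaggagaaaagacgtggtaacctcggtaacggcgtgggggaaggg
Pik3r1, chr13:101768218-101768467, minus strand: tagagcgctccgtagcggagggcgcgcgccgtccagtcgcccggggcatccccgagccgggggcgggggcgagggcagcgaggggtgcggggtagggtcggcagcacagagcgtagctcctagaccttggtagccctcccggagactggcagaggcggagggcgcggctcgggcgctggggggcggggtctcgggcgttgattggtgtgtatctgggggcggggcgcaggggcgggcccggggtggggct
Akt1, chr12:112674885-112675134, minus strand: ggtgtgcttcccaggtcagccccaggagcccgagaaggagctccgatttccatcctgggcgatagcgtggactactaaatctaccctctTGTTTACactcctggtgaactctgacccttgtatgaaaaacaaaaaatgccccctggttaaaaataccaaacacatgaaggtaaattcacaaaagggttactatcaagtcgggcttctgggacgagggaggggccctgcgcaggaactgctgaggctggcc
Irs1, chr1:82291440-82291689, minus strand: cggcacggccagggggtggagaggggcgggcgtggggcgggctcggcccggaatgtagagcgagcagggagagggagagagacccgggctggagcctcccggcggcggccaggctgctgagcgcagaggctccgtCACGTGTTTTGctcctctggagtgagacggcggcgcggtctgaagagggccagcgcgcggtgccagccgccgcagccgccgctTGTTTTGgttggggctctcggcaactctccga
Irs2, chr8:11008930-11009179, minus strand: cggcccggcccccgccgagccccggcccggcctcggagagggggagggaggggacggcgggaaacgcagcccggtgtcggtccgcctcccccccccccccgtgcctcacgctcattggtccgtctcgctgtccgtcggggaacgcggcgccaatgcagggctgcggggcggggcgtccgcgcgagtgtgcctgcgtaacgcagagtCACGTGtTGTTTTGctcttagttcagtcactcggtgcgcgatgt

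Such matches were common. Of all 32817 windows of this kind, 24.9% held at least 1 of the 8 heptamers. Sequences were found for 8 of the 10 genes, all but Insr and Slc2a4, with 14 starts in all, and 6 starts had a heptamer. Foxp4 peaks reached into 2 of the 14 windows, at Rptor and Pik3r1, too few to read a relation between heptamers and Foxp4 peaks in either direction. The Rptor window had 1, TGTTTGT, 132 bases before the start and inside the Foxp4 peak. The Pik3r1 window, of which 176 bases lay in a Foxp4 peak, had none and was 76.4% G and C. The Akt1 window lay wholly within an H3K27ac peak and held TGTTTAC, 161 bases before the start, a heptamer found in 3.16% of windows, yet no Foxp4 peak was called there. Irs1 and Irs2 both held TGTTTTG (5.56% of windows) and CACGTG (6.02%), a pair present together in 0.296% of windows. In Irs1 these letters overlap, from 115 bases before the start, and a further TGTTTTG lies 32 bases before it. In Irs2 the E-box starts 44 bases and TGTTTTG 37 bases before the start. At Akt2, whose starts are spread over the first part of the gene, the last of the listed starts had 6 overlapping matches to TGTTTGT in a run of repeated letters, between 124 and 104 bases before it, inside an H3K27ac peak and outside any Foxp4 peak.

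**Figure D3:**
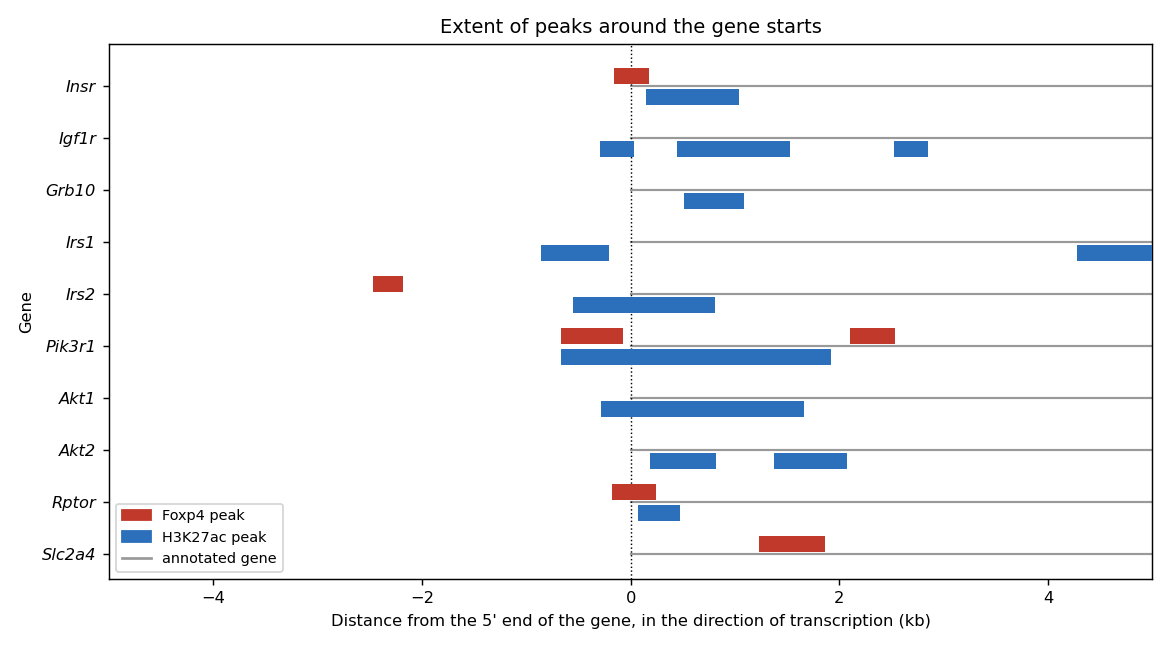
Extent of each Foxp4 peak (red) and H3K27ac peak (blue) within 5 kb of the 5' end of each gene, in the direction of transcription, with the annotated gene as a grey line. Red bars reach the start at Insr and Rptor and lie just upstream of it at Pik3r1, and no blue bar appears at Slc2a4.

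The insulin receptor gene Insr, on chromosome 8 from 3150922 to 3279649, carried Foxp4 at its start, at 3 places in the next 40 kb and at its far end. Its 5 Foxp4 peaks had scores of 22, 34, 21, 35 and 27 and lay 23 bp upstream and 6434, 26614, 39706 and 128030 bp downstream of the TSS. As many or more were assigned to 1.69% of protein-coding genes. The promoter peak, at 3279470 to 3279811, met the start of an H3K27ac peak of score 45 by 28 bp, at 3278608 to 3279497, where the first exon is annotated. Acetylation and Foxp4 were thus next to each other at this start, with 8.19% of the Foxp4 peak covered. The last Foxp4 peak, at 3151446 to 3151729, fell in the 3' untranslated part of exon 21, and the one at 6434 bp fell in a B2 element of the SINE repeats. The 3 other H3K27ac peaks of Insr lay in introns 1 and 2, at 19190, 23066 and 58262 bp, with scores of 43, 43 and 58. The nearest of them to a Foxp4 peak was 3104 bp away.

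Igf1r, the related receptor for insulin-like growth factor 1, was acetylated at its start and carried little Foxp4. It spans 281 kb on chromosome 7 and had 5 H3K27ac peaks, of which the first scored 77 and was centred 130 bp upstream of the TSS (67951960 to 67952294). A second, of score 46, had its centre 984 bp downstream and was annotated to a CpG island, and 3 more with scores of 28, 42 and 35 followed in introns 1 and 2. Its only Foxp4 peak, of score 28, lay 21252 bp downstream in intron 1, 18232 bp from the nearest acetylated region. In the far part of the gene 3 more H3K27ac peaks, with scores of 28, 43 and 34, are assigned by the annotation to the neighbour Pgpep1l.

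Grb10, an adaptor that binds the active receptors and damps their signal, had the lowest-scoring acetylated promoter of the 9. Its H3K27ac peak had a score of 30, lay 789 bp downstream of the TSS in a CpG island of intron 1 (chromosome 11, 12036344 to 12036918), and 81.4% of the H3K27ac list scored as high or higher. Its Foxp4 peak, of score 34, lay 38105 bp downstream in an LTR repeat of intron 1. Within the gene, 2 more Foxp4 peaks, with scores of 48 and 21, are assigned to the neighbour Ddc, and neither touched H3K27ac.

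Irs1 and Irs2, the docking proteins of the receptor, were both acetylated at the promoter with no Foxp4 promoter peak. At Irs1 on chromosome 1 the H3K27ac promoter peak had a score of 46 and its centre 532 bp upstream, and 2 more in the intron, 4923 and 7634 bp downstream, had scores of 39 and 33. The motif pair of Irs1 shown above lay between these peaks, outside H3K27ac. Its 2 Foxp4 peaks were distant, with a score of 26 at 29326 bp in the intron and of 21 at 57307 bp in the 3' untranslated part of exon 2. At Irs2 on chromosome 8 the promoter peak was stronger, with a score of 68 at 11008123 to 11009484, and covered the motif pair. Foxp4 came nearest at a peak that scored 35 and was centred 2826 bp before the start of Irs2, 1627 bp from this acetylated region and inside the noncoding gene 9530052E02Rik, which starts close to Irs2. The other Foxp4 peak, of score 41, lay 30440 bp upstream in a DNA transposon of the same gene. A further H3K27ac peak of score 44 lay 76574 bp upstream, and 2 more inside Irs2, with scores of 27 and 40, are assigned to 9530052E02Rik.

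Pik3r1, the regulatory subunit of PI3K that docks on Irs proteins, had the most assigned peaks of the 10 genes in both lists, a place that rests on assignment to the nearest TSS. It had 7 Foxp4 peaks and 13 H3K27ac peaks, and as many or more were found at 0.512% and 0.155% of protein-coding genes. No other protein-coding gene had this pair of counts. The gene lies on chromosome 13 from 101680761 to 101768217, and its protein-coding neighbours are 847 and 925 kb away, so peaks of a wide gene-poor stretch are assigned to it. Counted on the gene body with 5000 bp on either side, Pik3r1 had 2 Foxp4 peaks, below Insr and Rptor with 5 each and Grb10 with 3, and 6 H3K27ac peaks, below Igf1r with 8 and level with Akt2. Its promoter held an H3K27ac peak of score 100, the highest of the 37, at 101766297 to 101768884, in a CpG island, and 100% of the Foxp4 peak at 101768292 to 101768882, of score 26, lay inside it. A second Foxp4 peak of score 24, in intron 1 at 101765682 to 101766112, stopped 184 bp short of the same acetylated region.

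Beyond its promoter, acetylation of Pik3r1 was spread over both the gene and its flanks. In intron 2, 5 H3K27ac peaks lay between 21752 and 37180 bp upstream of the downstream start, with scores of 28, 39, 48, 46 and 45, and none met Foxp4. Upstream of the gene, 5 more lay 42547, 105982, 111178, 212740 and 244974 bp from the TSS with scores of 39, 37, 58, 65 and 43. Past its 3' end, 2 had scores of 37 and 43. Distal Foxp4 peaks stood beside the acetylated regions but not in them at 2 places. The Foxp4 peak 244157 bp upstream, of score 21, was 327 bp from the H3K27ac peak there, and the one 29059 bp downstream of the downstream start, also of score 21, was 428 bp from the next. The remaining 3 Foxp4 peaks, with scores of 34, 41 and 27, were at least 17948 bp from H3K27ac.

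The kinase genes Akt1 and Akt2 differed in how many peaks they had. Akt1, the broadly expressed form, had 1 H3K27ac peak of score 74 over its starts (chromosome 12, 112673221 to 112675172), 1952 bp wide. No Foxp4 peak is assigned to it, but 2 lie within the gene and are given to the microRNA gene Mir6939, with scores of 34 and 22, at least 11329 bp from the acetylated start. Akt2, the form most tied to insulin action in fat and muscle, had 6 H3K27ac peaks, matched or passed by 1.56% of protein-coding genes. The highest, of score 91, lay in a CpG island 505 bp downstream of the first start (chromosome 7, 27591742 to 27592372), and another of score 46 lay 113 bp upstream of a later start. Its 2 Foxp4 peaks both had a score of 21, and 98.7% of the Foxp4 list scored as high or higher. The peak in intron 4, at 27624529 to 27624863, shared 173 bp with an H3K27ac peak of score 43, and 51.6% of it was covered. The other lay 11622 bp upstream, in the last intron of the neighbour 2310022A10Rik.

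Rptor, the subunit of mTORC1 that brings in its substrates, was the third gene with Foxp4 at an acetylated promoter. Its Foxp4 promoter peak, of score 27, spanned the start at 119602730 to 119603147 on chromosome 11, with its centre 33 bp downstream. It shared 174 bp, 41.6% of its length, with an H3K27ac peak of score 74 at 119602974 to 119603380, in the 5' untranslated part of exon 1. The Foxp4 peak thus reached further upstream, over 175 bases of the window printed above, none of which lay in the acetylated peak. A second Foxp4 peak of score 41 lay in a B4 SINE repeat of intron 1, and a second H3K27ac peak of score 29 in an LTR repeat of intron 2. Within the 297 kb of the gene, 3 further Foxp4 peaks with scores of 49, 27 and 34 and 1 H3K27ac peak of score 37 are assigned to Rptoros, a noncoding gene, or to a microRNA.

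Slc2a4, which encodes the insulin-regulated glucose transporter Glut4, had Foxp4 peaks and no H3K27ac peak called. Its 2 Foxp4 peaks both had a score of 27. The first lay 1521 bp downstream of the TSS in exon 2 (chromosome 11, 69946352 to 69946986), 635 bp wide and the widest of the 24. The second lay at the 3' end of Slc2a4, 5782 bp downstream, and its deposited class names the transcription end of Ybx2. The H3K27ac peak nearest to both was the same one, of score 23, at 9099 bp from the first and 4994 bp from the second, and it is assigned to Ybx2, the next gene.

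**Figure D4:**
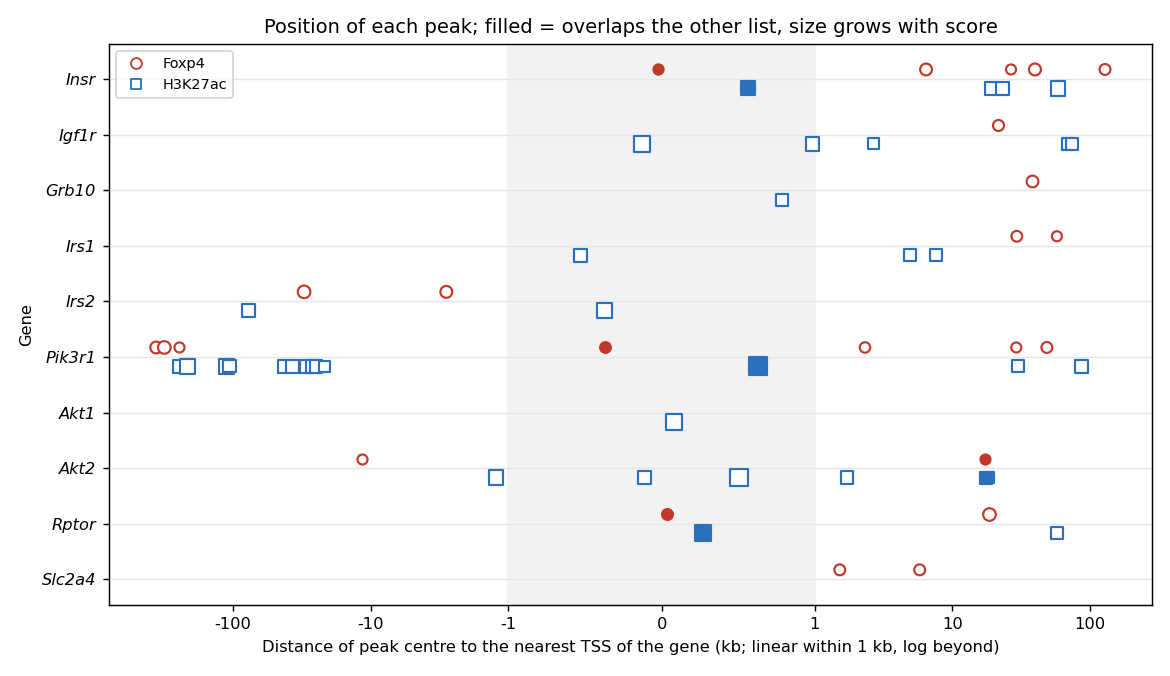
Distance of each peak centre to the nearest TSS of its gene, in kb, with Foxp4 as circles and H3K27ac as squares, sized by score and filled where the peak shares at least 1 bp with the other list. The grey band marks the 1000 bp promoter window, which holds 3 Foxp4 and 11 H3K27ac peaks.

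Over all members, 4 of 24 Foxp4 peaks shared at least 1 bp with H3K27ac (16.7%, exact 95% interval 4.74 to 37.4%), against 8.21% of all Foxp4 peaks, which lies inside that interval. The other way, 4 of 37 H3K27ac peaks did (10.8%, interval 3.03 to 25.4%), against 7.91% of the list. The 4 pairs were those described at Insr, Pik3r1, Akt2 and Rptor, so 4 of 10 genes had a Foxp4 peak overlapping H3K27ac, against 5.14% of protein-coding genes. A looser count, with a gap of at most 1000 bp, took in 7 of the 24 Foxp4 peaks (29.2%, against 12.9% of the list) and 7 of the 37 H3K27ac peaks (18.9%, against 13.7%). Under a stricter one, with the centre inside the other peak, 2 Foxp4 peaks, at Pik3r1 and Akt2, and 0 H3K27ac peaks remained. Intervals cover counting error only, and peaks of 1 gene are not independent.

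Most of these Foxp4 peaks lay far from starts, as those of the whole list did. The median distance of the centre to the TSS was 23933 bp for the 24 peaks, against 27282 bp for all Foxp4 peaks. Of the 24, 16 had their centre over 10 kb from the TSS and 3 lay at a promoter (12.5%, against 9.48% of the list). Of the 37 H3K27ac peaks 11 lay at a promoter (29.7%, against 36.5%), and 2 genes, Igf1r and Akt2, had more than 1 (2.46% of protein-coding genes). A repeat was named at 5 of the 24 Foxp4 peaks (20.8%, against 32.0%) and 4 of the 37 H3K27ac peaks (10.8%, against 15.7%).

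The median score of these Foxp4 peaks was that of their list, while the median of the H3K27ac promoter peaks was higher than that of all H3K27ac promoter peaks. Foxp4 member peaks had scores from 21 to 41 with a median of 27, which was also the median of the list, where the highest was 1357. The promoter peaks at Insr, Pik3r1 and Rptor had 22, 26 and 27, each below the median of 32 of all Foxp4 promoter peaks. Of the 24, 17 had one of 6 score values (21, 27, 34, 41, 49 and 57) that recur in this list (70.8%, against 73.1% of all Foxp4 peaks), among them both peaks each of Akt2, Slc2a4 and Rptor. Without them 7 peaks at 5 genes were left, including the promoter peaks of Insr and Pik3r1. H3K27ac member peaks had scores from 28 to 100 with a median of 43, against 40 in the list, and the 11 at promoters had a median of 68, against 51 for all H3K27ac promoter peaks. Not all were high, since the promoter peaks of Grb10, Insr and Irs1 and the lower one each of Igf1r and Akt2 stood below 51.

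**Figure D5:**
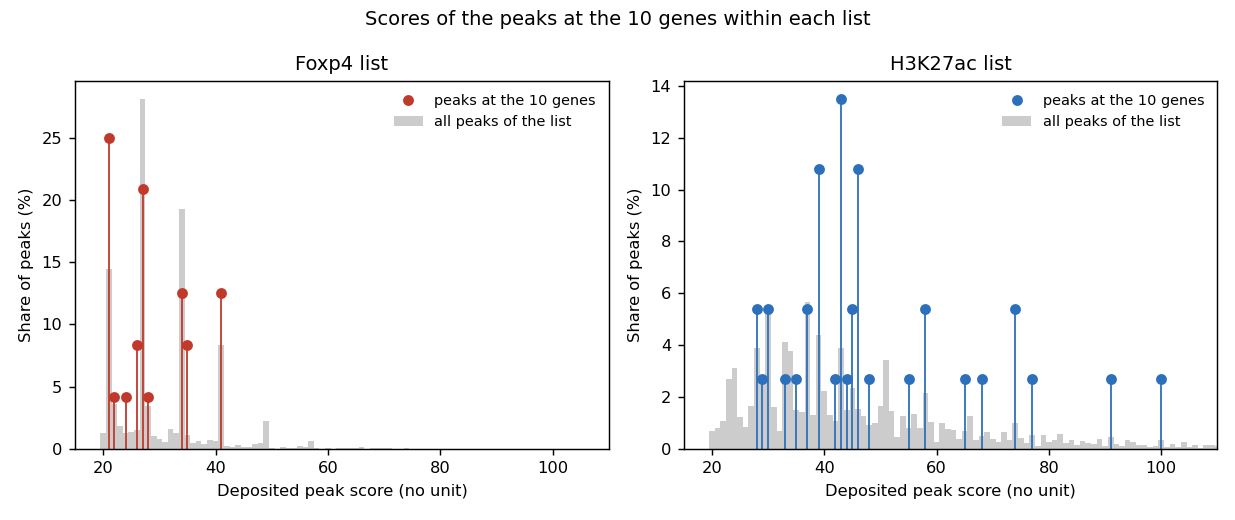
Share of peaks, in percent, at each deposited score, for the peaks of the 10 genes (points with stems) and for all peaks of the list (grey bars), with scores above 110 not drawn. Foxp4 peaks of these genes sit between 21 and 41, mostly on the tall grey bars of recurrent scores, and H3K27ac peaks between 28 and 100.

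The wider pathway was read from 77 further genes of textbook membership. Foxp4 promoter peaks occurred at 14 of them (18.2%, against 6.49% of protein-coding genes) and H3K27ac promoter peaks at 51 (66.2%, against 25.0%), with both at 13. Thus 13 of the 51 with an acetylated promoter had a Foxp4 promoter peak, against 14.2% of all protein-coding genes with an acetylated promoter. The highest H3K27ac promoter scores were 205 at the ubiquitin ligase gene Cblb, 159 at the protein kinase C gene Prkce, 146 at Akt1s1 and at the kinase gene Sgk1, and 129 at Lnpep, an aminopeptidase that travels with Glut4. All but Lnpep had a Foxp4 peak that overlapped H3K27ac.

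The Foxp4 promoter peaks of the 14 genes had scores from 24 to 76. Several of these genes are known to restrain the pathway. Others of the 77 with such a role, among them Ptpn1, Socs1 and Phlpp1, had no Foxp4 promoter peak. Genes with and without such a role were not compared. Ptpn2, a tyrosine phosphatase gene, had a score of 52, Cblb 36, and Socs3, an inhibitor of cytokine and insulin signalling, 32. Phlpp2, encoding a phosphatase of Akt, had 28. Akt1s1, an inhibitor within mTORC1, had 36. The pseudokinase gene Trib1 had the highest, 76. Further genes among them were the adaptor gene Sh2b1 (34), the transcription factor genes Srebf1 (35) and Foxo1 (24), Prkce (31), the PI3K regulatory subunit gene Pik3r3 (29) and the vesicle protein gene Vamp2 (27). Of the genes named here, Phlpp2 was the one whose promoter peak did not overlap H3K27ac. In all, 17 of the 77 genes had a Foxp4 peak that overlapped H3K27ac (22.1%, against 5.14% of protein-coding genes), and at Dok1, Rheb, Tbc1d1 and Sgk1 it lay away from the promoter. The strongest of these was at Sgk1, with a score of 66 and its centre 91617 bp upstream.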

How the data were processed

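The deposited peak lists of 1 Foxp4 and 1 H3K27ac ChIP-seq library were used, without the input DNA library. The submitters' processing notes name mm10 as the build and MACS2, Bowtie2, SAMtools, Picard and deepTools 3.3.0 as tools, with no settings. Per the file headers, each list was annotated with HOMER annotatePeaks.pl on mm10. Peaks carry a deposited score, in whole numbers from 20 up, whose scale is not stated, so scores were compared within a list only. The threshold of the peak call and the use of the input are not stated in the labels or headers. The labels name a Foxp4 antibody for all 3 libraries and none for H3K27ac.

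The autosomes (1 to 19) and both sex chromosomes were used, which dropped 1 Foxp4 peak. Genes were matched through Entrez identifiers to protein-coding genes of RefSeq on GRCm38.p6, and all 77 further pathway genes matched. Distances are the deposited ones, negative upstream. Overlap meant at least 1 shared bp, and the overlap computation was checked on simulated data. A score was called recurrent where 100 or more Foxp4 peaks had it and each adjacent score had a count more than 3 times smaller. Intervals are exact (Clopper-Pearson). The 10 genes, the further pathway list and the settings were chosen with earlier results of these data known. Named genes were all 10, and of the further list those with a Foxp4 promoter peak or an overlapping Foxp4 peak and the 5 highest H3K27ac promoter scores; some that meet this rule are not reported here by name. Software was Python 3.11.15 with pandas 2.3.3, scipy 1.17.1, numpy 2.4.6 and, for figures, matplotlib 3.10.9.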

Additional observations from a re-analysis of the deposited data

How the results depend on the processing

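Counts that moved by more than 1.5 times are given here, and for each the cause was not tested beyond what the setting itself removes or adds. With the centre of the peak inside the other peak, 2 member Foxp4 peaks and 0 member H3K27ac peaks overlapped, against 4 and 4. With at least 50% covered the counts were also 2 and 0, and with a gap of at most 1000 bp they were 7 and 7. With a promoter window of 500 bp, 5 members and 32 further pathway genes had an H3K27ac promoter peak, against 9 and 51, and 8 pathway genes had a Foxp4 promoter peak, against 14. With 3000 bp, 5 members had a Foxp4 promoter peak, against 3, with Irs2 and Slc2a4 added. By the authors' promoter class, 5 members and 26 pathway genes had an H3K27ac promoter peak, and Insr, Pik3r1 and Rptor were not among these members. In the higher-scoring 50% of each list, 9 Foxp4 and 24 H3K27ac member peaks were left, 0 member peaks of either list overlapped, 0 members had a Foxp4 promoter peak, and 11 pathway genes had an overlapping Foxp4 peak, against 17. Without recurrent scores, 7 member Foxp4 peaks were left, and 2 Foxp4 and 2 H3K27ac member peaks overlapped. Counting peaks on the gene body and 5000 bp on either side in place of the nearest TSS gave 24 Foxp4 and 35 H3K27ac peaks, but moved them between genes. Foxp4 peaks were then 2 at Pik3r1, against 7, 1 each at Irs2 and Akt2, against 2 each, 5 at Rptor, against 2, 3 at Grb10, against 1, and 2 at Akt1, against 0. H3K27ac peaks were 6 at Pik3r1, against 13, 8 at Igf1r, against 5, and 3 at Irs2 and 3 at Rptor, against 2 each. Leaving out Foxp4 peaks in repeats, a setting chosen after seeing the data, gave 19 Foxp4 peaks with 4 overlapping. Depth is unknown, and a deeper library could add peaks.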

Other observations

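Nearest-TSS assignment gave away some peaks that lie on these genes. By RefSeq coordinates 22 Foxp4 peaks and 34 H3K27ac peaks touched the body of any of the 10 genes. Among them 7 and 6 were assigned to another gene, either a noncoding or microRNA gene or the protein-coding neighbour Ddc or Pgpep1l. The Foxp4 peaks of this kind lay at Rptor, Grb10 and Akt1, and the H3K27ac peaks at Igf1r, Irs2 and Rptor. Of these, 0 overlapped the other list. Taking them in, all 10 genes had a Foxp4 peak on the gene or assigned to it, and 9 had an H3K27ac peak.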
